A study of Mus musculus with 5 samples.

Results

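The unfolded protein response and its endoplasmic reticulum (ER) folding genes were followed in mouse hepatocytes from the fed state to 24 h without food. The set was 35 of the 32285 genes in the count table, listed by symbol: 15 chaperones and folding enzymes, 7 degradation genes, 7 translocation and transport genes, and 6 sensors and transcription factors. The hepatocytes came from male C57BL/6J mice of wild-type genotype on normal chow (lab diet #5053), and 1 droplet-based single-cell RNA library was made for each of 5 time points. All animals had 3 days of training with 16 h of fasting and 8 h of feeding. On the last day they ate chow with 20% sucrose in the water. The fed library (0 h) was taken after 4 h of feeding, at 13:00, when food and sucrose were withdrawn from the other animals. The fasted libraries followed after 4, 8, 16 and 24 h, at clock hours 17, 21, 5 and 13. Fasting time and clock hour therefore cannot be told apart, except that the 24 h and fed libraries share their clock hour.

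Secreted and membrane proteins enter the ER through the Sec61 channel and fold there with the help of lumenal chaperones such as BiP, the product of Hspa5. When unfolded protein accumulates, the sensors IRE1 (Ern1), PERK (Eif2ak3) and ATF6 start the unfolded protein response: IRE1 splices the Xbp1 transcript, PERK slows translation and favours ATF4, and ATF6 is cut to release a transcription factor. XBP1 and ATF6 raise the genes for chaperones, translocation and ER-associated degradation. Hepatocytes secrete most plasma proteins and carry a large ER.

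Promoters of the set were read from RefSeq (GRCm38.p6), 250 bases before to 50 after each start site, to show the elements through which ATF6 and XBP1 are known to act. The table held 28 of the 35 genes, in 30 promoters. It had no entry for Manf, Hyou1, Derl1, Sec61a1, Sec11c, Ostc and Atf6. The ER stress response element, ERSE, was searched on both strands as CCAAT and CCACG with any 9 bases between them. It occurred in 39 of 32851 promoters (0.119%) and in those of 9 genes of the set: Hspa5, Hsp90b1, Creld2, Pdia6, Dnajc3, Calr, Canx, Syvn1 and Derl3. The element TGACGTG (UPRE), also searched on both strands, was found in 661 promoters (2.01%) and, within the set, only in Hspa5. Both elements of Hspa5 are shown first. The GENCODE M21 start of Hspa5 lies 120 bases upstream of the RefSeq one, so that its ERSE falls in the 5′ UTR of the GENCODE transcript and its UPRE before it. The ERSE runs below them are from Derl3, Creld2 and Syvn1, which, with Hspa5, were furthest below the fed library at 24 h among the 9, from Hsp90b1, which holds 2 matches, and from Canx, which was closest to its fed level among the 9. Capitals mark the fixed letters of the element, and the strand is that of the printed run.
Hspa5 UPRE (chr2:34771923-34771949, plus strand): ggcgtagcaaTGACGTGagttgcggag
Hspa5 ERSE (chr2:34772020-34772048, plus strand): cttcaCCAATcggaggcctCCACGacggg
Derl3 (chr10:75893232-75893270, minus strand): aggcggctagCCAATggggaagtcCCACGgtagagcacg
Creld2 (chr15:88819510-88819548, minus strand): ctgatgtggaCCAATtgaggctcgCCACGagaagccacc
Syvn1 (chr19:6046522-6046560, plus strand): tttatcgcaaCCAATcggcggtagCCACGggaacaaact
Hsp90b1 (chr10:86705628-86705666, minus strand): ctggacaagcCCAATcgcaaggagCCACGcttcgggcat
Hsp90b1 (chr10:86705523-86705561, plus strand): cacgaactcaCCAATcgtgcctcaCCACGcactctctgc
Canx (chr11:50325790-50325828, minus strand): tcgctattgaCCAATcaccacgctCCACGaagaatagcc

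The shorter element ERSE-II, searched on both strands as ATTGG and CCACG with any 1 base between them, occurred in 12 promoters (0.0365%). Dnajb11 and Herpud1 were the only genes of the set with it, in Dnajb11 after the start site, within the 5′ UTR, and they are shown because at 4, 8 and 24 h Dnajb11 was below its fed level and Herpud1 above it. Herpud1 also held the amino acid response element TGATGNAA, the kind of site ATF4 is known to bind, which was present in 1304 promoters (3.97%). A match describes the letters and does not show binding.
Dnajb11 (chr16:22857844-22857870, plus strand): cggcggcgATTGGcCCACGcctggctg
Herpud1 (chr8:94386369-94386395, plus strand): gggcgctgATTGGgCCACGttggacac

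Hepatocytes were barcodes that held 1000 or more UMIs, 500 or more genes and a mitochondrial share of 2 to 30%, which kept 7826, 4567, 2716, 9125 and 4576 cells at 0, 4, 8, 16 and 24 h. UMIs of each gene were summed over these cells and divided by their 33521626 to 45532684 nuclear-encoded UMIs, giving UMI counts per 1000000 (CPM). CPM is a share of the RNA that was counted, so that it does not give the number of molecules in a cell. With 1 library per time point no test was possible, and each difference describes 2 libraries. The intervals are 95% exact intervals and cover counting error only. Median UMIs per hepatocyte ranged from 4391 (16 h) to 15005 (8 h) and the median mitochondrial share from 9.79% (8 h) to 19.1% (4 h). At 8 h, 6675 of 10000 barcodes were under the minimum of UMIs or genes, against 637 at 16 h. The 7 hepatocyte markers summed to between 87558 and 116977 CPM. Markers of other cell types were highest in the fed library for endothelial cells (72.8 CPM, against 9.85 to 29.3 CPM in the fasted libraries) and macrophages (36.3 CPM, against 0.118 to 5.52 CPM), with each of the 7 endothelial and 8 macrophage markers lower at 24 h than fed. Stellate cell markers summed to 1.34 to 26.8 CPM, bile duct markers to at most 78.1 CPM, and lymphocyte, plasma cell and neutrophil markers to at most 3.57 CPM. Of the erythroid markers, the 4 globin genes were each at most 5.80 CPM, highest at 24 h, and Alas2 stood at 20.6 to 67.0 CPM, lowest at 24 h. Of the barcode sequences of hepatocytes, 73 occurred in more than 1 library.

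The set as a whole was lower in all 4 fasted libraries. Its 35 genes summed to 16979 CPM in the fed library and to 8108, 6619, 7673 and 5568 CPM in the fasted libraries in time order. The fed library held the highest value of the 5 for 29 of the 35 genes, and the 24 h library the lowest for 21. Over the 6932 genes with a mean of at least 10 CPM, the fed library was highest for 25.4% and the 24 h library lowest for 20.0%. At 4 h, 18 of 35 genes were at least 2-fold lower than in the fed library, where 4.86% of all genes were. At 8 h it was 25 of 35, against 9.95% of all genes. At 16 h it was 14 of 35, against 2.86%, and at 24 h 27 of 35, against 7.59%. None of the 35 was 2-fold higher at any time, while 3.66%, 5.38%, 2.54% and 4.44% of all genes were at 4, 8, 16 and 24 h. The median log2 ratio to fed of the set was -1.05, -1.48, -0.88 and -1.62 in that order, with medians of -0.07, -0.07, -0.01 and -0.08 over all genes. All 35 were counted whatever their level, and 32 had a mean of at least 10 CPM, Derl3, Ddit3 and Eif2ak3 being below it.

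**Figure D1:**
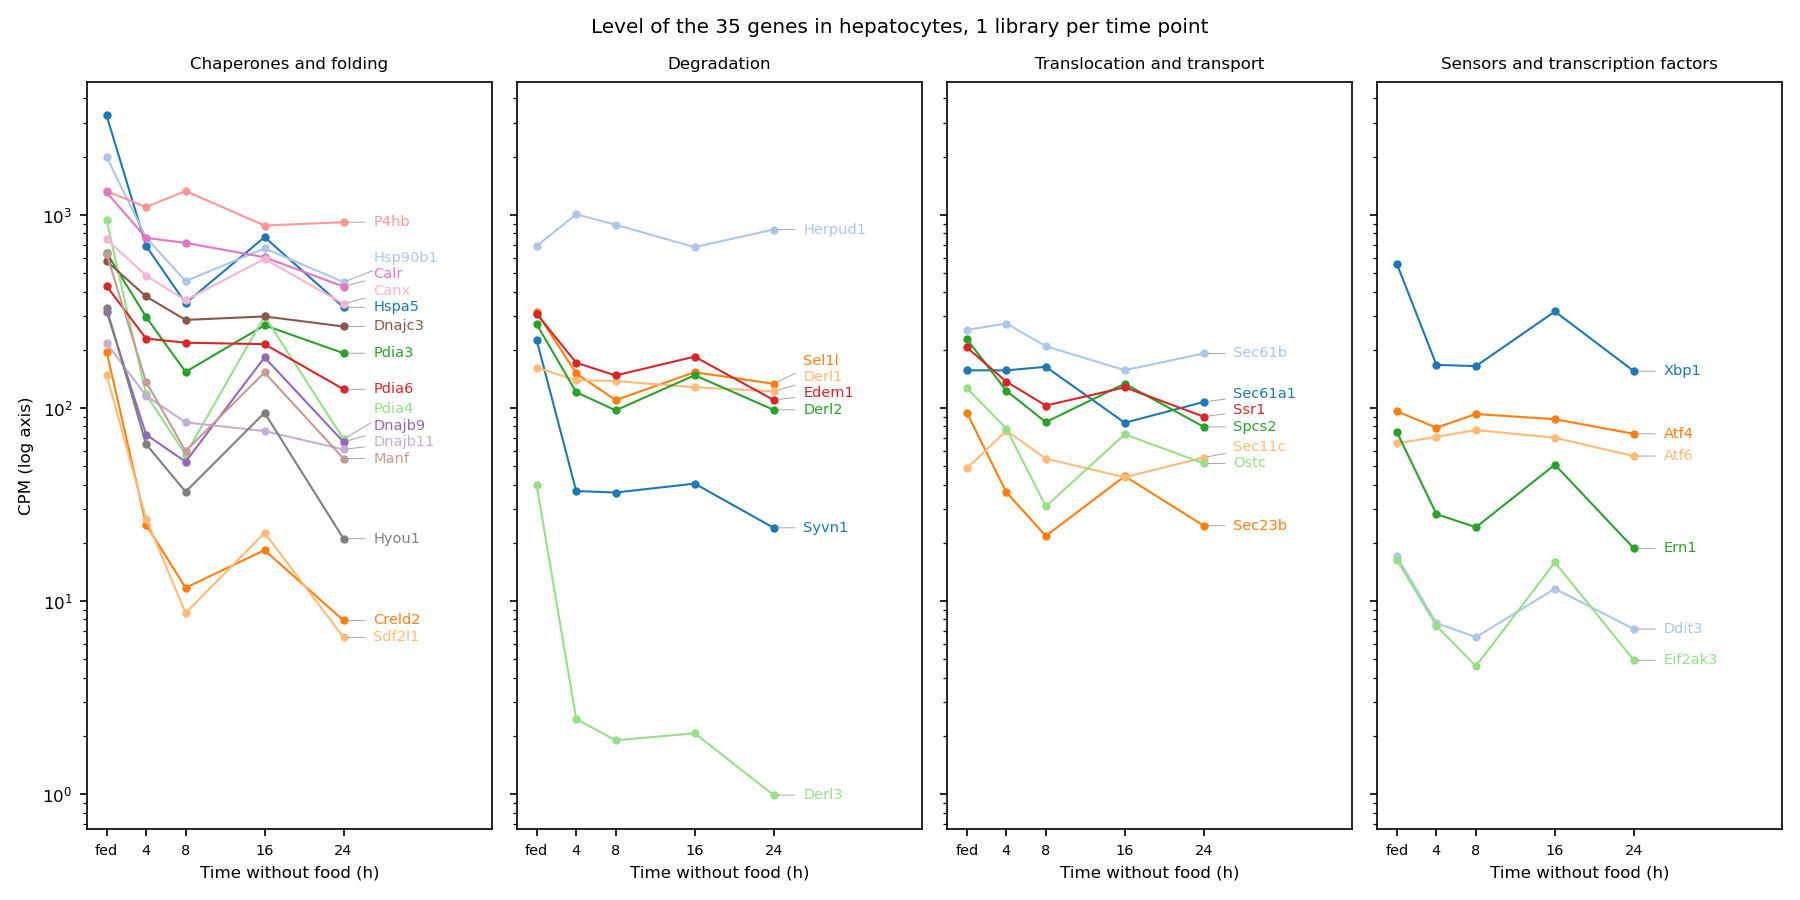
Level of each of the 35 genes (CPM, log axis) against hours without food, 1 point per library, in 4 panels by role. Most lines start highest in the fed library, and the lines of many chaperones, Xbp1, Ern1 and Eif2ak3 have a second, lower peak at 16 h.

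The 15 chaperones and folding enzymes took 1.30% of the nuclear-encoded UMIs in the fed library and 0.525%, 0.417%, 0.513% and 0.333% of those at 4, 8, 16 and 24 h. Of the 15, 9, 12, 10 and 14 were at least 2-fold lower than fed at these times, where 4.86%, 9.95%, 2.86% and 7.59% of all genes were. The same shares apply to the counts of the other roles below. The median log2 ratio was -1.39, -2.14, -1.51 and -2.15. Hspa5 (chromosome 2, 34771970 to 34777547 in GENCODE M21, GRCm38), the BiP gene whose promoter elements are shown above, stood at 3266 CPM fed, 689 CPM at 4 h, 348 CPM at 8 h, 765 CPM at 16 h and 332 CPM at 24 h. The 24 h level was 9.85-fold lower than the fed one, a log2 ratio of -3.30 (-3.33 to -3.27). Hsp90b1, which encodes the ER form of HSP90, stood at 1994, 761, 453, 669 and 448 CPM in time order, with a log2 ratio of -2.15 (-2.18 to -2.13) at 24 h. Both genes had the fed library far above the rest and the 16 h library above those at 8 and 24 h.

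The lowest ratios among the chaperones at 24 h were those of Creld2, Sdf2l1 and Hyou1. Creld2 (chromosome 15, 88819646 to 88826683), which encodes a protein disulfide isomerase-like ER protein, stood at 195 CPM fed, 24.8 CPM at 4 h, 11.7 CPM at 8 h, 18.3 CPM at 16 h and 7.90 CPM at 24 h. Its log2 ratio was -4.63 at 24 h (-4.80 to -4.46), 24.7-fold lower than fed. Sdf2l1, which works with BiP and its J-protein cofactors, stood at 148, 26.7, 8.63, 22.5 and 6.47 CPM, with a log2 ratio of -4.51 (-4.70 to -4.33) at 24 h. In both genes each fasted library was far below the fed one, and the lowest library was that at 24 h.
Hyou1, a large HSP70-like chaperone and nucleotide exchange factor of BiP, stood at 328, 64.8, 36.7, 94.2 and 21.0 CPM, a log2 ratio of -3.97 (-4.07 to -3.86) at 24 h. Pdia4, a disulfide isomerase, had the lowest ratio of the group at 4 h, with 937 CPM fed, 117 CPM at 4 h, 57.2 CPM at 8 h, 298 CPM at 16 h and 68.7 CPM at 24 h. Its 16 h value lay 2.38 above that of 8 h on the log2 scale, the widest such step in the set. Manf, which encodes a secreted ER stress factor, stood at 626, 136, 59.6, 152 and 54.6 CPM, and Dnajb9, a BiP cofactor, at 315, 72.6, 52.5, 182 and 66.4 CPM. In these 4 genes, as in Hspa5, the fed library was highest and the 16 h library lay above the other fasted ones.

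The lectin chaperones and the main disulfide isomerase differed less. Calr, the calreticulin gene, stood at 1305, 758, 715, 602 and 424 CPM, and had no peak at 16 h. Its membrane-bound relative Canx stood at 746, 483, 361, 591 and 345 CPM. At 16 h it was closest to fed in this group, with a log2 ratio of -0.33 (-0.36 to -0.31). P4hb, which encodes protein disulfide isomerase itself, was the single chaperone gene not 2-fold lower in any fasted library, with 1325 CPM fed, 1096 CPM at 4 h, 1326 CPM at 8 h, 879 CPM at 16 h and 915 CPM at 24 h. The isomerases Pdia3 and Pdia6 and the J-protein genes Dnajb11 and Dnajc3 had log2 ratios between -1.83 and -1.13 at 24 h, between -1.11 and -0.61 at 4 h, between -2.05 (Pdia3) and -0.97 at 8 h, and between -1.51 and -0.95 at 16 h.

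**Figure D2:**
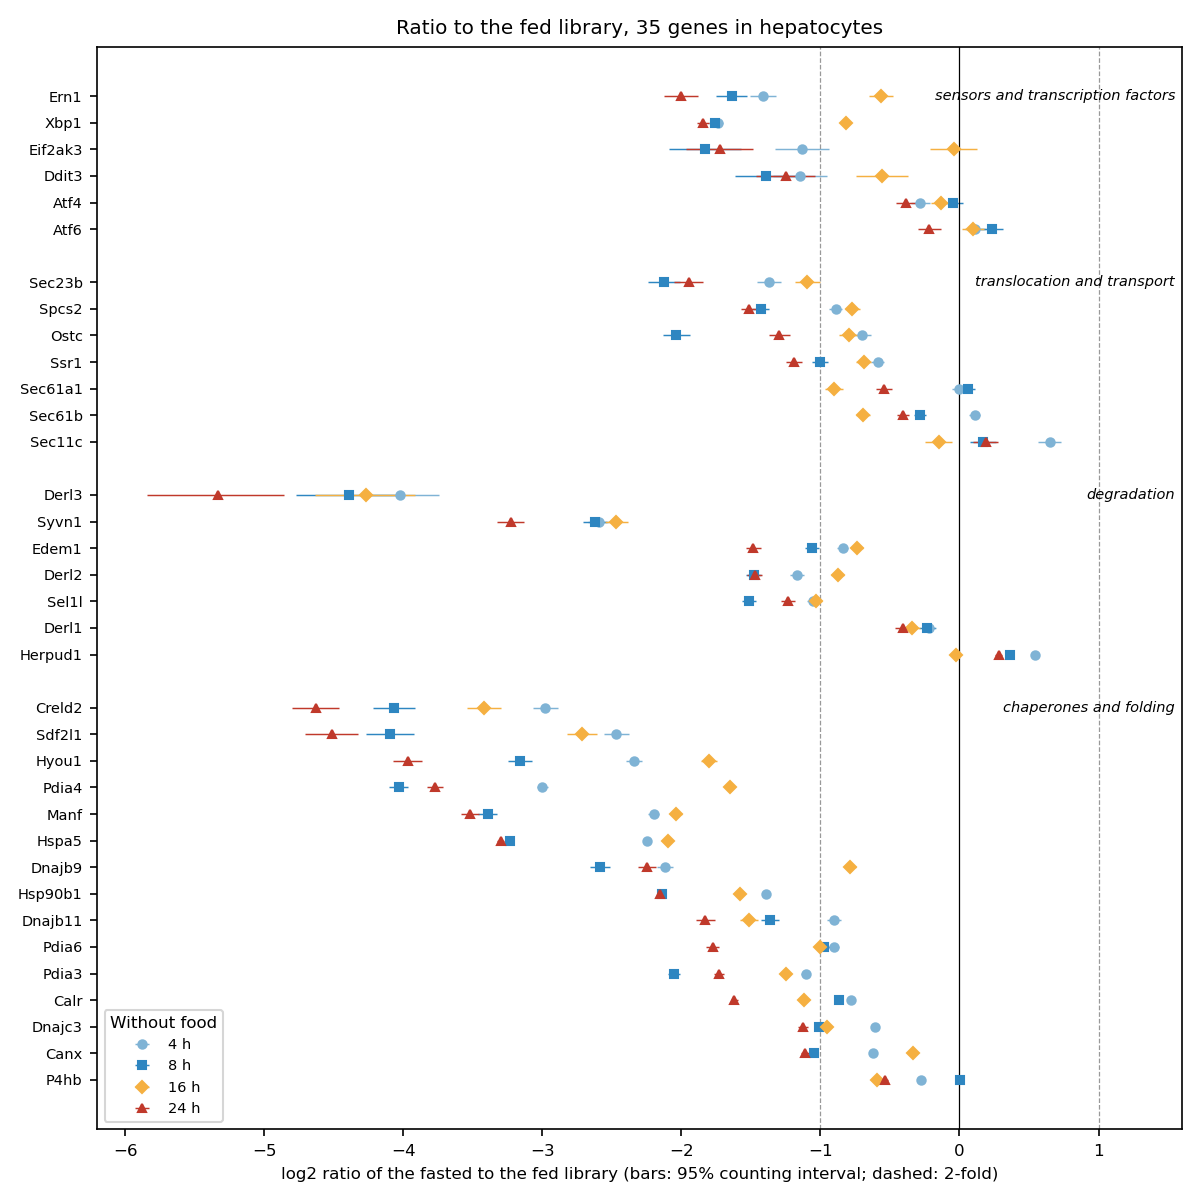
log2 ratio of each fasted library to the fed library for the 35 genes, grouped by role and ordered within a role by the 24 h ratio, with bars for the 95% counting interval and dashed lines at 2-fold. At 24 h Derl3, Creld2 and Sdf2l1 lie furthest to the left, and no gene reaches the right-hand 2-fold line.

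The degradation genes were split between strong and small differences. Of the 7, 4, 5, 3 and 5 were at least 2-fold lower than fed in time order, with median log2 ratios of -1.05, -1.48, -0.88 and -1.47. Derl3 (chromosome 10, 75893413 to 75895941), a derlin of the channel that returns misfolded protein to the cytosol, stood at 39.6 CPM fed (1497 UMIs), 2.44 CPM at 4 h (111 UMIs), 1.89 CPM at 8 h, 2.06 CPM at 16 h and 0.985 CPM at 24 h (37 UMIs). Its log2 ratio of -5.33 at 24 h (-5.84 to -4.86) was the lowest of the set. Syvn1, which encodes the ubiquitin ligase HRD1, stood at 224, 37.0, 36.4, 40.5 and 23.9 CPM, a log2 ratio of -3.23 (-3.33 to -3.13) at 24 h. In both genes all 4 fasted libraries lay far below the fed one.
Sel1l, the HRD1 partner, had 313 CPM fed and 110 to 153 CPM in the fasted libraries. Edem1, a lectin that marks glycoproteins for disposal, stood at 306, 171, 147, 184 and 110 CPM, and Derl2 at 271, 120, 96.9, 147 and 97.5 CPM. Both had their highest fasted level at 16 h. Derl1, by contrast, stayed between 122 and 162 CPM in all 5 libraries.
Herpud1, which encodes an ER membrane protein of the HRD1 complex, was the 1 degradation gene above its fed level in most fasted libraries, with 689 CPM fed, 1005 CPM at 4 h, 887 CPM at 8 h, 679 CPM at 16 h and 838 CPM at 24 h. Its log2 ratio was 0.54 (0.52 to 0.57) at 4 h and 0.28 (0.26 to 0.31) at 24 h, under the 2-fold mark. In hepatocytes with 5 to 10% mitochondrial UMIs the 4 h ratio of Herpud1 was -0.23. Over 11 other processing settings its 24 h ratio ranged from 0.03 to 0.46.

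Translocation and transport genes differed less than the chaperones at each time. Of the 7, 1, 4, 1 and 4 were at least 2-fold lower than fed in time order, with median log2 ratios of -0.59, -1.001, -0.77 and -1.19. Sec23b, a coat protein of vesicles leaving the ER, had the lowest ratio at every time, with 94.3, 36.5, 21.7, 44.2 and 24.5 CPM. Spcs2, a signal peptidase subunit, stood at 227, 122, 84.2, 133 and 79.6 CPM. Ostc, of the oligosaccharyltransferase, stood at 126, 78.0, 30.8, 72.8 and 51.5 CPM, lowest at 8 h. These 3 genes had the fed library highest, with the lowest value at 8 or 24 h.
Ssr1, of the translocon-associated protein complex, went from 205 CPM fed to 89.9 CPM at 24 h. The 2 Sec61 channel subunits in the set had another order. Sec61a1 stood at 156, 156, 163, 83.6 and 107 CPM, and Sec61b at 253, 273, 208, 157 and 191 CPM, both lowest at 16 h. The remaining channel subunit, Sec61g, is not in the set and was looked at after its values were seen; it stood at 516, 516, 525, 378 and 215 CPM, lowest at 24 h. Sec11c, a catalytic subunit of signal peptidase, was above its fed level at 3 times, with 48.5, 76.0, 54.5, 43.6 and 55.2 CPM and a log2 ratio of 0.65 (0.57 to 0.73) at 4 h. For Sec61a1, Sec61b and Sec11c the 16 h library was thus the lowest of the 5, where Hspa5 and most other chaperones had the 16 h library above those at 8 and 24 h. In the other roles P4hb and Herpud1 were also lowest at 16 h.

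The sensors differed among themselves. Ern1 (chromosome 11, 106394650 to 106487852), the IRE1 gene, stood at 74.8 CPM fed, 28.1 CPM at 4 h, 24.0 CPM at 8 h, 50.7 CPM at 16 h and 18.7 CPM at 24 h, with a log2 ratio of -2.002 (-2.12 to -1.88) at 24 h. Xbp1, its splicing target, stood at 556, 167, 164, 315 and 155 CPM, a log2 ratio of -1.85 (-1.89 to -1.80) at 24 h. The counts come from the 3' end of transcripts and do not tell spliced from unspliced Xbp1. Both genes were highest fed, next at 16 h, and lowest at 24 h.
Eif2ak3, the PERK gene, stood at 16.3, 7.42, 4.58, 15.8 and 4.92 CPM, so that its 16 h and fed levels differed by less than counting error (log2 ratio -0.04, -0.21 to 0.13). Atf4, the transcription factor downstream of PERK, ranged only from 73.2 to 95.8 CPM, and Atf6 from 56.2 to 76.7 CPM. Ddit3, which encodes the stress factor CHOP and is known as an ATF4 target, stood at 17.0, 7.66, 6.48, 11.5 and 7.13 CPM. Of the 6 genes, 4 were at least 2-fold lower than fed at 4, 8 and 24 h (Ern1, Xbp1, Eif2ak3 and Ddit3) and none was at 16 h.

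From one library to the next, most of the set was lower at 8 h, higher at 16 h and lower again at 24 h. At 8 h against 4 h, 31 of 35 were lower (52.3% of all genes were), 5 of them at least 2-fold (Sdf2l1, Ostc, Manf, Creld2 and Pdia4), where 2.15% of all genes were. At 16 h against 8 h, 24 of 35 were higher (54.9% of all genes were) and 10 at least 2-fold higher, where 9.68% of all genes were: Hspa5, Sdf2l1, Pdia4, Dnajb9, Manf, Hyou1, Sec23b, Ostc, Ern1 and Eif2ak3. At 24 h against 16 h, 30 were lower (57.4% of all genes were) and 11 at least 2-fold lower, where 5.14% of all genes were. The median log2 step was -0.41, 0.56 and -0.69, beside -0.02, 0.09 and -0.10 over all genes. The 16 h library also had the highest sum of 7 acute-phase genes (14330 CPM, against 2440 to 6059 CPM in the others) and of 8 immediate-early genes (727 CPM, against 299 to 538 CPM). Saa1 (4880 CPM) and Saa2 (4946 CPM) made up most of the acute-phase sum at 16 h, and Hp was highest at 4 h. Among the immediate-early genes Fos and Ier2 were highest at 4 h and Dusp1 in the fed library. The part of both lists in the 16 h values of the set was not tested.

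The genes with and without the promoter element overlapped in their ratios at each time. All 9 genes with an exact ERSE were at least 2-fold lower at 24 h, where 7.59% of all genes were, with a median log2 ratio of -2.15 and a range of -5.33 to -1.11. The 13 genes with no ERSE, even with 1 mismatch allowed, had a median of -1.73 and a range of -4.51 to -0.39, and 10 of them were 2-fold lower. At 4, 8 and 16 h, 5, 7 and 6 of the 9 with an exact ERSE were 2-fold lower (medians -1.39, -2.14 and -1.58), against 6, 10 and 3 of the 13 without (medians -0.90, -1.43 and -0.74). Of all genes, 4.86%, 9.95% and 2.86% were 2-fold lower at these times. The 6 with exactly 1 mismatch had a median of -1.36 at 24 h. Allowing 1 mismatch raised the share of all promoters with a match from 0.119% to 1.5%. Sdf2l1, among the lowest of the set, lies in the group without a match.

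Single hepatocytes were compared after thinning each to 2000 nuclear-encoded UMIs, which left out 1444, 1073, 220, 1497 and 225 shallower cells. The median cell then had 27 UMIs of the 15 chaperone and folding genes in the fed library, and 11, 8, 10 and 6 in the fasted libraries in time order. Without thinning, the medians of the same cells were 135, 53.6, 41.8, 50.4 and 31.7 per 10000 UMIs. The middle 90% of fed cells had 14 to 41 UMIs, and that of 24 h cells 1 to 12. Cells under the fed 5th percentile of 14 UMIs made up 75.7%, 94.95%, 83.2% and 97.4% of the fasted libraries in time order. At 24 h, 190 of 4351 cells had no UMI of the 15 genes.

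**Figure D3:**
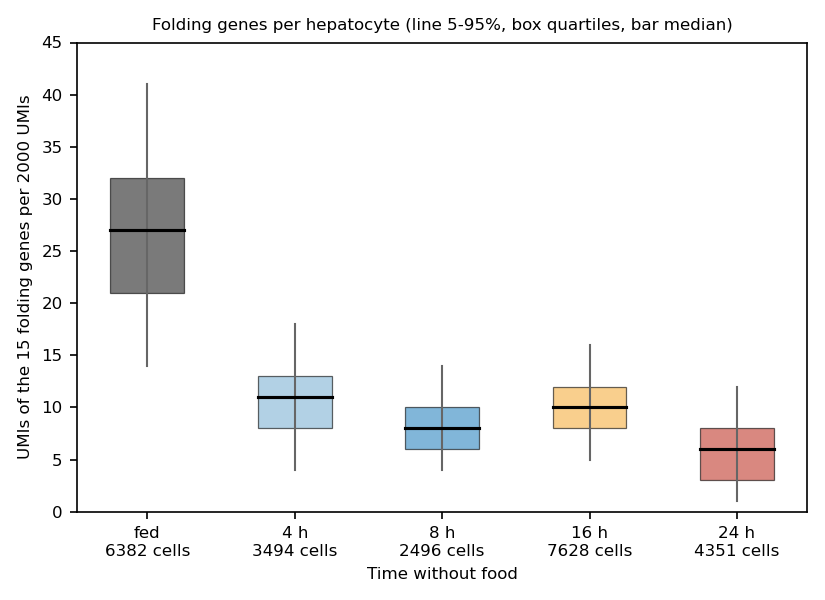
UMIs of the 15 chaperone and folding genes per hepatocyte thinned to 2000 UMIs, for the 5 libraries, with the median as a bar, the quartiles as a box and the 5th to 95th percentile as a line. The fed box (21 to 32 UMIs) lies above the 95th percentile of each fasted library.

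Across cells of 1 library, the 10 genes outside the set whose thinned counts followed the chaperone sum most, by the mean Pearson correlation over the 5 libraries, were Serpina3k (0.35), Alb (0.28), Trf (0.27), Selenop (0.27), Fga (0.27), Apob (0.25), C3 (0.22), Ahsg (0.21), Gc (0.21) and Cps1 (0.21). Genes with many counts per cell, such as Alb (albumin), have less counting noise in such a ranking than genes with few. The 2653 genes ranked had a median of 0.0056 and a 99th percentile of 0.15. Within the set, Hspa5 (0.18) and Hsp90b1 (0.16), each set against the sum of the other members of its group, were above that percentile, and Sec61b had the lowest value (-0.11). For Hspa5 and Hsp90b1 this held for the mean and in the fed (0.42 and 0.34, 99th percentile 0.19) and 16 h libraries (0.060 and 0.043, against 0.038), and both were below that library's 99th percentile at 4, 8 and 24 h. Values were larger at 24 h (0.65 for Serpina3k) than at 16 h (0.05). The points are cells that share a library and its free RNA, most counts per cell are low, and 6 of the 10 genes were also in the top 10 with cells thinned to 4000 UMIs.

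The chaperone level varied with the mitochondrial share of a cell. The Pearson correlation across cells was 0.20, 0.54, 0.06, 0.13 and 0.73 in the 5 libraries in time order, over 6382, 3494, 2496, 7628 and 4351 cells. That of the chaperone share with the log of a cell's UMIs was 0.49 at 24 h and -0.14 to 0.066 in the other libraries. Hepatocytes were therefore also compared within 5 classes of mitochondrial share. In fed cells with 5 to 10% mitochondrial UMIs the 15 genes summed to 12925 CPM, against 2852, 4136, 4878 and 2614 CPM at 4, 8, 16 and 24 h. In cells with 10 to 15% they summed to 13267, 4531, 4208, 5056 and 3039 CPM. In the class of 2 to 5% the fed level was 5349 CPM, against 1869, 4021, 3114 and 864 CPM. The fed library was thus highest in each class, and the log2 ratio of the sum lay between -2.18 and -1.33 for the 4 h library over the 5 classes. For the 8 h library it lay between -1.80 and -0.41, for the 16 h library between -1.41 and -0.78, and for the 24 h library between -2.63 and -1.77.

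**Figure D4:**
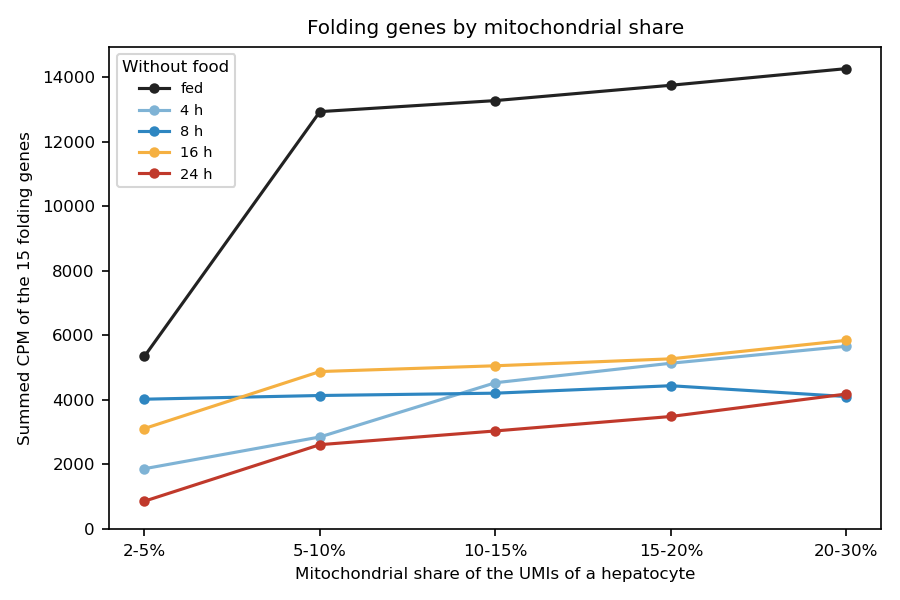
Summed level of the 15 chaperone and folding genes (CPM) in hepatocytes of 5 classes of mitochondrial share, with a line for each library. The fed line is highest in every class and is nearest to the 8 h line in the class of 2 to 5% (5349 against 4021 CPM).

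Barcodes with under 2% mitochondrial UMIs, which were not counted as hepatocytes, numbered 2172, 5345, 576, 234 and 5400. In these barcodes 32, 32, 28, 30 and 32 of the 35 genes were lower than in the hepatocytes of the same library, where 67.7%, 70.5%, 78.9%, 63.9% and 68.1% of all genes were, so that at 8 h the count was near that of all genes. Among the 35, Sec61b, Sec11c and Ddit3 were higher there in all 5. Within these barcodes 19, 17, 10 and 28 of the 35 were at least 2-fold lower than fed at 4, 8, 16 and 24 h, beside 16.7%, 26.2%, 8.73% and 18.5% of all genes. Sec11c was 2-fold higher there at 8 h, as 4.27% of all genes were. Leaving out the 8 to 179 hepatocytes per library with over 0.5% of their UMIs in markers of another cell type gave 18, 25, 15 and 27 genes at least 2-fold lower, where all hepatocytes gave 18, 25, 14 and 27.

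The place along the liver lobule was read from 2 landmarks, Cyp2f2, which is high around the portal vein, and Cyp2e1, which is high around the central vein. Hepatocytes of each library were ordered by the log2 ratio of these genes and divided into 3 equal parts, with 905 to 3041 cells in an outer part. These are ranges of a score and not positions in tissue. In the fed library differences between the parts were small, and 27 of 35 genes were higher in the portal part, where 38.9% of all genes were. Of the 15 chaperones, 11 were higher in the fed portal part, and 6 with a score from 10 portal and 10 central landmarks, 7 with 5 to 20% mitochondrial UMIs and 7 with at least 3000 UMIs per cell. The median log2 ratio of the portal to the central part was 0.08, beside -0.06 over all genes, and 0 of 35 genes differed 1.5-fold, where 5.25% of all genes did. This fed median ranged from -0.011 to 0.44 over the other settings, so that its sign depended on the setting. The highest fed ratios were those of Derl3 (0.48, 0.28 to 0.69), Dnajc3 (0.34) and Syvn1 (0.33), and the lowest those of Sec61b (-0.33, -0.41 to -0.25), Sec11c (-0.24) and Ddit3 (-0.22, -0.51 to 0.08). For Hspa5 the portal part had 3452 CPM and the central part 2994 CPM. The medians at 4, 8 and 16 h were 0.04, 0.03 and 0.07, with 20, 22 and 24 genes higher in the portal part (45.4%, 41.7% and 33.6% of all genes), again with 0 genes 1.5-fold apart, where 8.5%, 4.62% and 6.33% of all genes were. Over the other settings the median ranged from -0.030 to 0.45 at 4 h and from -0.024 to 0.16 at 8 h, so that its sign depended on the setting, and with at least 3000 UMIs per cell 5 of the 15 chaperones were higher in the portal part at 4 h, against 10.
At 24 h the median was 0.53 and 29 of 35 genes were higher in the portal part, where 65% of all genes were, with 13 of the 35 differing 1.5-fold. Over all genes the 24 h median was 0.16, and 19% differed 1.5-fold. The highest ratios at 24 h were those of Ern1 (0.85, 0.50 to 1.22), Sel1l (0.74) and Dnajb9 (0.73), and the lowest those of Sec61b (-0.71, -0.80 to -0.62), Sdf2l1 (-0.56, -1.09 to -0.03) and Sec11c (-0.26). For Hspa5 the values were 378 CPM (portal) and 261 CPM (central). The portal part was the deeper one in all 5 libraries, with median UMIs in the portal and central part of 5719 and 2812 fed, 18951.5 and 3094.5 at 4 h, 15602 and 10845 at 8 h, 4330 and 3856 at 16 h, and 11202 and 3028 at 24 h. Its mitochondrial share was also higher in each, by most at 24 h (18.4% and 11.1%). Their part in the zone ratios was not tested. Cyp2e1 reached 2343 CPM in the central part, against 4218 to 8922 CPM in the other libraries. With a score from 10 portal and 10 central landmarks, 7 of the 15 chaperones were higher in the portal part at 24 h, where the ratio of Cyp2f2 to Cyp2e1 gave 13. The median of the 35 genes at 24 h was then 0.046, and it ranged up to 1.40 over the other settings. The Cyp2f2 to Cyp2e1 score separated the other landmarks less well at 24 h: 8 of the 10 portal landmarks were higher in the portal part (median 0.44) and 9 of the 10 central ones in the central part, where all 10 of each were in the other libraries.
The difference from the fed library was present in both outer parts. In the portal part 18, 24, 16 and 26 of the 35 were at least 2-fold lower than fed at 4, 8, 16 and 24 h, beside 5.14%, 9.84%, 2.91% and 7.13% of all genes. In the central part it was 14, 22, 14 and 28, beside 5.65%, 10.3%, 3.65% and 12% of all genes. The 24 h log2 ratio of Herpud1 to fed was 0.35 in the portal part and -0.03 (-0.09 to 0.02) in the central part.

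**Figure D5:**
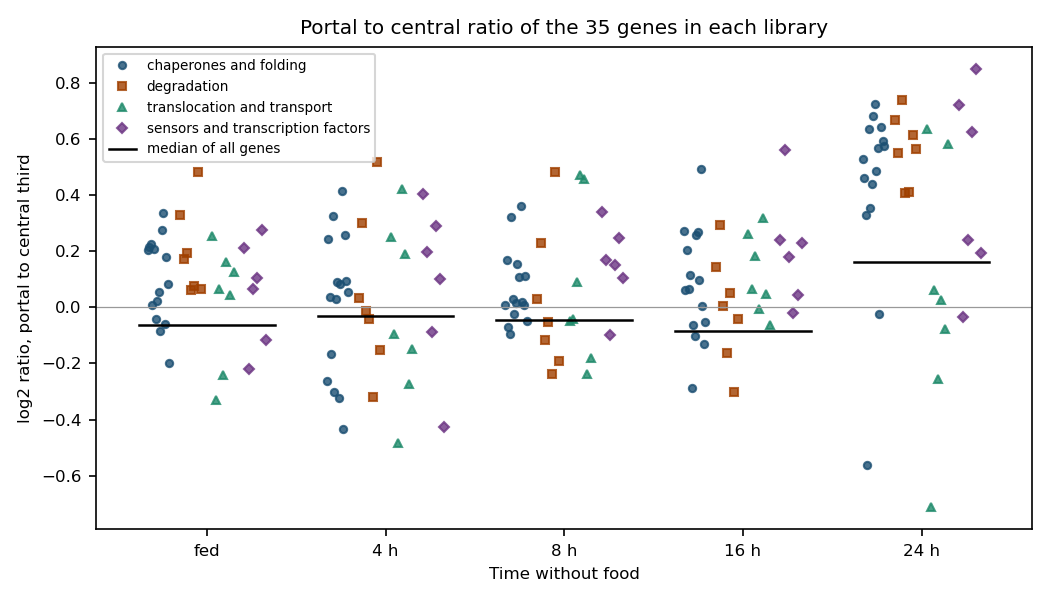
log2 ratio of the portal to the central part of the hepatocytes for each of the 35 genes, by library and role, with a black bar for the median of all genes. Points lie around 0 in the first 4 libraries and mostly above it at 24 h, where the bar is also higher (0.16).

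Other genes of the same pathways were taken from lists that exclude the 35. The shares of all genes 2-fold lower, 4.86%, 9.95%, 2.86% and 7.59% in time order, apply to each list. Of 20 further ER folding genes with a mean of at least 10 CPM, 5, 7, 4 and 6 were at least 2-fold lower than fed at 4, 8, 16 and 24 h and none was 2-fold higher, with a median log2 ratio of -0.75 at 24 h. The lowest at 24 h were Hspa13, an HSP70-like chaperone (-2.42), Ero1lb, an oxidase that recharges disulfide isomerases (-2.36), Fkbp11, a prolyl isomerase (-1.75), and Creld1 (-1.18). Fkbp11 met the minimum only through its fed library (20.7 CPM, against 6.15 to 9.07 CPM in the fasted ones). It is counted as lower at each time, so that these calls follow in part from the minimum. Of 17 further degradation genes 1, 2, 0 and 4 were lower, near the shares of all genes at 4 and 8 h, with medians of -0.06 at 16 h and -0.50 at 24 h and Sel1l3 (-1.54), Edem3 (-1.30), Selenok (-1.09) and Ubxn4 (-1.03) past 2-fold. Of 32 further translocation and transport genes 2, 8, 2 and 9 were lower and 1, 1, 0 and 0 higher, with a median of -0.74 at 24 h. Srprb, of the receptor for the signal recognition particle (-1.65), Sec24d, a vesicle coat protein (-1.55), Stt3a, the catalytic subunit of an oligosaccharyltransferase (-1.52), and Ssr3 (-1.40) were lowest. Ssr4 was the gene that was 2-fold higher at 4 and 8 h (1.16 and 1.01), while its partners Ssr1 and Ssr3 were below their fed level. Of 11 further stress regulators 2, 1, 0 and 1 were lower and none higher, with a median of 0.21 at 24 h and 7 of 11 above their fed level, as 43.9% of all genes were. Creb3l2, a relative of Atf6, was the 1 past 2-fold at 24 h (-1.55).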

How the data were processed

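The deposited matrix holds raw UMI counts per gene and barcode, the output of Cell Ranger 6.0.1, per the file headers, with build mm10 per the submitters' processing notes. The annotation version, barcode selection, any subsampling and the number of animals per library are not given in the sources used here, so that differences may be technical. Each library was made with a 10x Genomics 3' v3 kit and holds 10000 barcodes and 40002260 to 68330252 UMIs. No column of per-sample values was left unused (0).

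The members, gene lists and settings were chosen with earlier results of these data known. Gene positions are from GENCODE M21 (GRCm38). Counts were summed over hepatocytes per library as CPM of nuclear-encoded UMIs. With 1 library per group no test was made. Intervals are 95% exact Poisson (levels) and exact conditional binomial (ratios), covering counting error only. A gene was counted past 2-fold, beside the 6932 genes with a mean of at least 10 CPM. Named genes were, in each role, the 3 lowest and 2 highest log2 ratios at 24 h and the extremes at 4, 8 and 16 h. Other lists gave up to 4 genes past 2-fold at 24 h or else the 2 most extreme, and zones the 3 highest and lowest. Hspa5, Hsp90b1 and further members were described beyond this rule, after their values were seen. Ddit3 has 2 features, summed, 1 of them without UMIs. Doublets were not called. Alternatives covered the denominator, TMM (edgeR 4.0.16) and median-of-ratios (DESeq2 1.42.0) scaling in R 4.3.3, cell filters, cell weighting, 10% free RNA subtracted, the 5% of cells with the most UMIs left out, the fold and the zone score. Calculations ran in python 3.11.15 with scipy 1.17.1 and numpy 2.4.6, tables in pandas 2.3.3 and plots in matplotlib 3.10.9, and were tested on simulated data.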

Additional observations from a re-analysis of the deposited data

Results flagged for a closer look

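In 4 genes of the set the fasted libraries lay on both sides of the fed one by more than counting error, and these opposite directions were not tested, since each rests on 1 library. Sec61a1 had a log2 ratio to fed of 0.061 at 8 h and -0.90 at 16 h. Sec61b had 0.11 at 4 h and -0.69 at 16 h, and with mitochondrial UMIs in the denominator its 4 h value was -0.016. Sec11c had 0.65 at 4 h and -0.15 at 16 h. Atf6 had 0.23 at 8 h and -0.22 at 24 h. Sec61a1, Sec61b and Sec11c were each lowest at 16 h, as were P4hb and Herpud1. Sec61a1 was also below its fed level at 24 h (-0.54), and Sec61b at 8 h (-0.28) and 24 h (-0.41).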

How the results depend on the processing

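Over 11 other settings with the 2-fold limit, the number of the 35 genes at least 2-fold lower at 4, 8, 16 and 24 h was 13 to 21, 21 to 26, 13 to 16 and 25 to 27, and the median log2 ratio ranged from -1.18 to -0.84, -1.52 to -1.24, -0.91 to -0.81 and -1.92 to -1.44. TMM scaling moved every log2 ratio by 0.21, 0.24, 0.06 and 0.18 in time order; Atf4 and Derl1 at 8 h, Eif2ak3 and Herpud1 at 16 h and Sec61a1 at 4 h, all close to their fed level, then changed sign, as all but Derl1 did with median-of-ratios scaling. With all UMIs in the denominator, Sec61b (-0.016) and Atf6 (-0.012) at 4 h changed sign. A 1.5-fold limit gave 27, 27, 26 and 27 lower, and 1 higher at 4 h. The share of all genes past 1.5-fold was not computed, and the 2-fold shares do not apply to these counts. Classes of mitochondrial share were added after the data were seen. The share of all genes past 2-fold was not computed within them, so that the counts there have no background. In the class of 2 to 5%, Alb stood at 23081 CPM fed and 48872 CPM at 8 h. In the class of 2 to 5%, 16 genes were lower and 4 higher at 8 h, and 18 of 136 ratios to fed, of 13 genes, changed sign at 4, 8 or 16 h, among them those of Dnajb11 (0.10), Dnajc3 (0.17), Calr (0.57) and Derl1 (1.24) at 8 h and of Sec23b (0.30), Sec61a1 (0.16) and Atf4 (0.54) at 16 h, where the class held 75 cells. In the class of 5 to 10%, Herpud1 at 4 h was -0.23. In the class of 20 to 30%, with 100 fed cells and 20 at 8 h, 1 gene was higher at 8 h and 1 at 16 h, and 14 of 136 ratios changed sign, among them Ddit3 at 4 h (0.18) and 8 h (1.98). Barcodes under 2% gave 1 higher at 8 h. Chaperones higher in the portal part were 6 with 10 portal and 10 central landmarks, 7 with 5 to 20% mitochondrial UMIs and 7 with at least 3000 UMIs in the fed library (against 11), 5 with at least 3000 UMIs at 4 h (against 10), and 7 with the landmarks at 24 h (against 13). The causes were not tested. The zone medians of the 35 genes ranged from -0.01 to 0.44 fed and 0.05 to 1.40 at 24 h. Depth limits Derl3, Ddit3 and Eif2ak3 most. No paired analysis was possible because each group has 1 library.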

Other observations

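Most chaperones of the cytosol were below their fed level as well. Of 15 such genes with a mean of at least 10 CPM, 6, 6, 6 and 8 were at least 2-fold lower than fed at 4, 8, 16 and 24 h and none was 2-fold higher, with a median log2 ratio of -1.04 at 24 h, where 4.86%, 9.95%, 2.86% and 7.59% of all genes were 2-fold lower. Cct5 (0.53) and Cct2 (0.022), subunits of the TRiC chaperonin, were the 2 above their fed level at 24 h. Hspb1, a small heat shock protein, stood at 42.9 CPM fed and 1.81 CPM at 24 h (-4.57). The minimum is a mean over all libraries, which a gene can meet through a high fed library, to be then counted as lower. The calls of Hspb1 may in part follow from it. Hspa1b, an inducible HSP70, stood at 21.8 CPM fed, 2.06 CPM at 4 h, 4.08 CPM at 8 h, 24.6 CPM at 16 h and 1.65 CPM at 24 h (-3.72), so that its 16 h level was slightly above the fed one. Hspa1b met the minimum only through its fed and 16 h libraries. Hsph1 (-3.06) and Hsp90aa1 (-2.98) followed. The 8 mitochondrial chaperone and protease genes had 0, 1, 1 and 0 members 2-fold lower and none higher, where the shares of all genes are those above, with a median of -0.20 at 24 h and Hspe1 (-0.60) and Grpel1 (0.39) at the ends.

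Of 22 listed ATF4 targets, 6 had a mean of at least 10 CPM. At 4, 8, 16 and 24 h, 1, 1, 0 and 1 of them were at least 2-fold lower and 1, 2, 0 and 0 higher (3.66%, 5.38%, 2.54% and 4.44% of all genes were higher), with a median of 0.24 at 24 h, so that each count is of 1 or 2 genes at most. The other listed targets were under this mean and were not counted. Among those, Trib3 had log2 ratios to fed of 1.72, 1.93, 2.84 and 1.62 in time order. Asns had -0.14, 0.44, 1.82 and -2.06. Slc3a2, a subunit of amino acid transporters, was lower at 24 h (-1.24). Ddit4, an inhibitor of mTORC1 signalling, stood at 5.29 CPM fed, 14.8 CPM at 4 h, 56.1 CPM at 8 h, 2.68 CPM at 16 h and 7.42 CPM at 24 h. It is counted as higher at 4 and 8 h and met the minimum mean only through its 8 h library. Atf5 stood at 151 CPM fed and 419 CPM at 8 h. Ddit4 and Atf5, highest at 8 h, and also Trib3 and Asns, were chosen after their values were seen.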
